A study of Homo sapiens with 6 samples.

Results

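The 47 genes described here encode the proteins that license and copy DNA in S phase: the origin licensing factors, the MCM2-7 helicase and its activators, the polymerases, the clamp PCNA and its loader, the proteins that bind single strands and join fragments, the enzymes of deoxynucleotide supply, regulators of the G1/S transition, and factors that rebuild chromatin behind the fork. They were a fixed list of symbols, matched to the Ensembl identifiers of the count table through GENCODE 44, and all 47 were found among the 63241 genes listed. The study silenced SHMT2 in HT-1376, an established human bladder carcinoma cell line, and examined growth, cell cycle stage, gene expression, splicing and metabolites. There were 3 libraries of cells given a non-targeting siRNA (siNC) and 3 of cells given an siRNA against SHMT2 (siSHMT2), prepared with a strand-specific kit after mRNA capture. Both groups were transfected with the same lipid reagent and grown in the same medium. The siSHMT2 group stands for a single siRNA, chosen among 4 candidates, in a single cell line, and no library of untransfected cells was analysed here. The paper calls the replicates biological, but neither it nor the labels say whether they were separate cultures. The p-values below therefore measure only the spread between these libraries. Because the study also measured cell cycle stage by flow cytometry, the question put to these genes was whether the RNA of the replication machinery moved with SHMT2 knockdown.

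Replication begins when the origin recognition complex, CDC6 and CDT1 load the MCM2-7 ring onto DNA in G1. CDC45 and the GINS complex then turn the ring into a working helicase, the DNA polymerases extend the strands behind it, and PCNA, placed by replication factor C, holds the polymerases on the template. Most of these genes are targets of the E2F transcription factors, and their mRNA is known to accumulate as cells pass from G1 into S phase. SHMT2, the mitochondrial serine hydroxymethyltransferase, releases the one-carbon units that feed the synthesis of purines and thymidylate, the building blocks that the replication machinery consumes.

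None of the replication genes changed at an adjusted p under 0.05. Fold changes were computed for genes with 60 or more counts summed over the 6 libraries, which 37 of the 47 genes had. Of these, 23 had a log2 fold change below 0 (lower in siSHMT2) and 14 above 0, with a median of -0.09 and a range from -1.23 (GINS3) to 0.44 (CDT1). Over all 7207 genes tested in the series, the median was -0.00 and 50.2% lay below 0. GINS3, a subunit of the GINS complex, was the only replication gene with an unadjusted p under 0.05, or 1 of 37, where 3.84% of all tested genes had such a p and 1.9% had it with a lower level in siSHMT2. The 37 adjusted p-values ran from 0.999 to 1.0 (edgeR's quasi-likelihood test, Benjamini-Hochberg adjustment over all 7207). No gene of the series, 0.0% of those tested, passed the adjusted threshold, and the smallest adjusted p was 0.93. DESeq2 likewise gave 0 replication genes at an adjusted p under 0.05 and 1 at an unadjusted p under 0.05, again GINS3.

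The precision of these values sets what they can show. The standard error of a log2 fold change had a median of 0.32 over the 37 genes and ran from 0.16 to 0.47. The 95% interval held 0 in 36 genes. It stayed within a halving and a doubling in 26, reached a halving in 6 and reached a doubling in 5. Thus a halving of the counted level lay outside the interval for abundant genes such as MCM7, MCM3 and FEN1. It lay inside the interval for ORC1, GINS3, POLA1, RPA2, TK1 and DUT. The strand setting of the counting is unknown, and whether the counts hold the reads of each gene's own strand was not tested. These intervals therefore describe the deposited counts, and how far they hold for the mRNA was not tested. Cells in bulk were measured, and fewer cells in S phase and less RNA per S phase cell cannot be told apart.

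**Figure D1:**
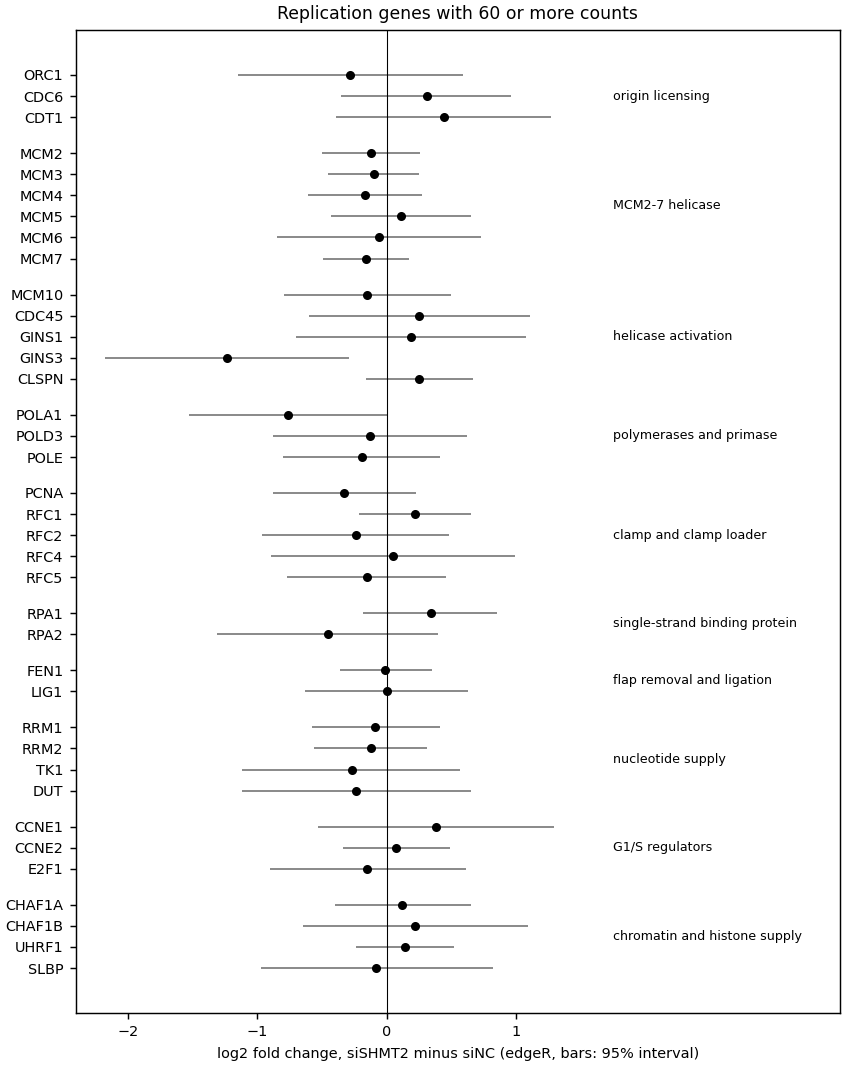
Log2 fold change of siSHMT2 against siNC for the 37 replication genes with 60 or more counts, grouped by role; points are edgeR estimates, bars are 95% intervals and the vertical line marks no difference. Of the 37 bars, 36 cross or touch 0, and the bar of GINS3 lies below it, from -2.18 to -0.29.

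A motif of the E2F factors was searched for in the promoters of these genes. Promoter sequences from RefSeq (build GRCh38.p14) were matched by symbol for 40 of the 47 genes, and the 250 bases before each start site were searched on both strands for 4 forms of the E2F motif, TTTCCCGC, TTTGGCGC, TTTCGCGC and TTTGCCGC. A match was present in 15 of the 40 genes (37.5%), against 4.6% of 15843 protein-coding genes and 3.4% of all 27305 genes with a promoter. Among the tested genes, the 11 with a match had a median log2 fold change of -0.15, with 9 below 0, and the 21 without one had a median of -0.01, with 11 below 0. These medians are descriptions and were not tested against each other. The sequences below are those of the 5 genes whose groups did not overlap in the comparison that follows, and of MCM6, which held the most matches. RefSeq gives PCNA and MCM7 further start sites, whose windows held no match and are not shown. Each sequence runs 5′ to 3′ on the gene's strand up to the base before the start site, with motif matches in capitals.
CDT1, chr16:88803539-88803788, plus strand: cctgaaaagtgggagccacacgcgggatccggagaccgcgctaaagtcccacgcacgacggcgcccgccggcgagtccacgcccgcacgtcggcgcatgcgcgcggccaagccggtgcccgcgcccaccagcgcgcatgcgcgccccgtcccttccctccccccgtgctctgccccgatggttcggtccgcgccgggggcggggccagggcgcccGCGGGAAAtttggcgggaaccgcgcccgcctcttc
MCM7, chr7:100101398-100101647, minus strand: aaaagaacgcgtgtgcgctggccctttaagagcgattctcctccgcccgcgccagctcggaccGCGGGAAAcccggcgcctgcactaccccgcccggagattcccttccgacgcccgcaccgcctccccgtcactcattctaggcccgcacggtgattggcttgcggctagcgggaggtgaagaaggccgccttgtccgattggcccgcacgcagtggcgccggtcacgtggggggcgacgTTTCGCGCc
PCNA, chr20:5126623-5126872, minus strand: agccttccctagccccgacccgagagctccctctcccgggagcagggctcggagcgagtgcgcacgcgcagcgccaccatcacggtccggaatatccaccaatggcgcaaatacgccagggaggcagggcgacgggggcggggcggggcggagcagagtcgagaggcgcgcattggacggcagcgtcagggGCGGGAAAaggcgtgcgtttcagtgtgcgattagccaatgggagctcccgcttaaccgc
MCM6, chr2:135876444-135876693, minus strand: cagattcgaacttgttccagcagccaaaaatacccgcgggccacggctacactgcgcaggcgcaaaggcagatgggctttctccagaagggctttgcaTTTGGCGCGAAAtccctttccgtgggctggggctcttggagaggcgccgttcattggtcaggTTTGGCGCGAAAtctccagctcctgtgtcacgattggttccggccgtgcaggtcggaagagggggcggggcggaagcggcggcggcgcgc
GINS3, chr16:58392221-58392470, plus strand: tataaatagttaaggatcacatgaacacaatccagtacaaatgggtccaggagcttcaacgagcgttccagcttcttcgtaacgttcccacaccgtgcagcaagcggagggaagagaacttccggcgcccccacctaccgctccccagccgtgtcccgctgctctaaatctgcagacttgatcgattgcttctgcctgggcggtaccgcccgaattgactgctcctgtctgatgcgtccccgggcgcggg
CHAF1B, chr21:36385142-36385391, plus strand: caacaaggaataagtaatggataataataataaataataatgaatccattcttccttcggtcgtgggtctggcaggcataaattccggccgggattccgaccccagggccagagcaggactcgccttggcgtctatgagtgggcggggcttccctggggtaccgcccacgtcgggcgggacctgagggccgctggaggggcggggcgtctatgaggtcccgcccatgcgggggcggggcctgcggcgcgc
Counted from the start site, the match of CDT1 began at base -35, that of PCNA at -59, and those of MCM7 at -187 and -9. In MCM6 the 4 matches formed a pair of sites in which a match on one strand overlaps a match on the other, beginning at -152, -148, -90 and -86. The windows of GINS3 and CHAF1B held none of these letters, which says nothing about binding of an E2F factor there.

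**Figure D2:**
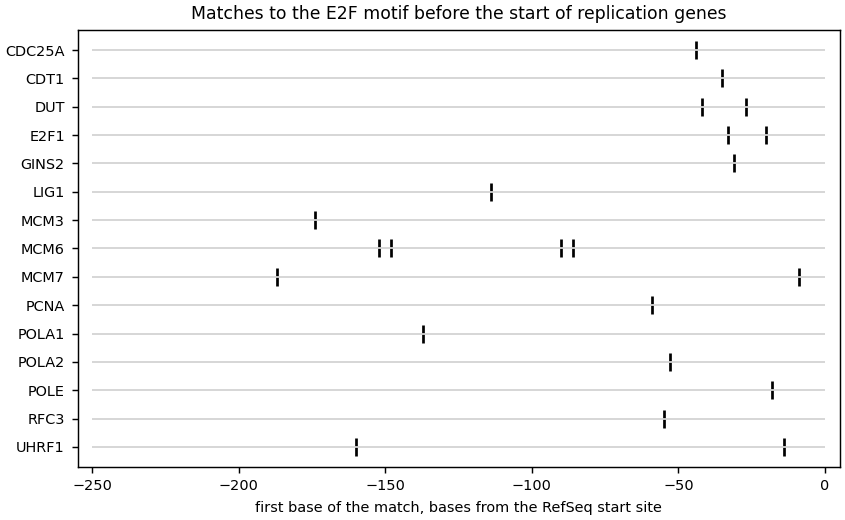
Position of each match to the E2F motif in the 250 bases before the RefSeq start site of the 15 replication genes with a match; the horizontal axis is the first base of the match in bases from the start site, and each row is a gene. MCM6 has 4 matches, DUT, E2F1, MCM7 and UHRF1 have more than 1, and the match nearest to a start site is that of MCM7 at -9.

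SHMT2 itself was read first, as the check of the labels. SHMT2 (ENSG00000182199; chromosome 12, 57229573 to 57234935, plus strand, GRCh38) had 28, 15 and 20 counts in siNC and 9, 2 and 5 in siSHMT2 (replicates 1 to 3 in this order, as for every gene below). Each siSHMT2 library was below each siNC library, the log2 fold change being -1.78 (SE 0.48) with an adjusted p of 0.93 (edgeR's quasi-likelihood test, Benjamini-Hochberg adjustment). The deposited counts were low: those of a library summed to between 533689 and 890574, the replication genes took 889 to 1577 of them, and the median count of a tested gene was 25. These totals are far below the number of reads that the paper reports sequencing per sample, and the reason is not given in the sources used here. The siSHMT2 replicate 1, with the fewest counts, stood apart from the other 5 on the first principal component (33.7, against -12.5 to -1.02, 27.6% of the variance). Without it the median log2 fold change of the replication genes was 0.01 in place of -0.09, 0 genes passed the adjusted threshold and GINS3 remained the only gene with an unadjusted p under 0.05. The epithelial keratins KRT8, KRT18 and KRT7 were high in all 6 libraries, while UPK3A, a marker of terminally differentiated urothelium, was at 0 and UPK2 had 1 count. The epithelial transcription factor GATA3 had a log2 fold change of 0.54 (95% interval 0.08 to 1.00) with an unadjusted p of 0.0225 and an adjusted p of 1.0 (same test). Of 14 markers of fibroblasts, immune cells and endothelium, 8 were at 0 in all libraries. In CPM (counts scaled to the library total), the fibroblast markers summed to 11.3 to 26.1, the immune markers to 0.0 to 2.51 and the endothelial markers to 0.0 to 4.78 over the 6 libraries, and their part in the results was not tested.

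The level of these genes spanned a wide range within the cells. Levels between genes are compared here in FPKM, in which a count is scaled to gene length and to the library's total. The mean over the 6 libraries ran from 1.17 (POLE2, an accessory subunit of DNA polymerase epsilon) to 56.0 (FEN1, the flap endonuclease of Okazaki fragment processing), with a median of 7.39. After FEN1 the order was MCM7 at 43.2, MCM3 at 38.2, PCNA at 29.0 and MCM2 at 28.3. Compared within libraries, FEN1 exceeded MCM7 in 6 of 6 and MCM3 exceeded PCNA in 6 of 6. MCM7 exceeded MCM3 in 5 of 6 and PCNA exceeded MCM2 in 4 of 6, so the order of these last pairs was not the same in every library. A further 10 genes had fewer than 60 counts and get no fold change: ORC6 with 58 counts over the 6 libraries, CDC25A with 53, GINS4 with 52, RFC3 with 52, POLD1 with 47, RPA3 with 44, PRIM1 with 39, GINS2 with 27, POLA2 with 21 and POLE2 with 9.

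**Figure D3:**
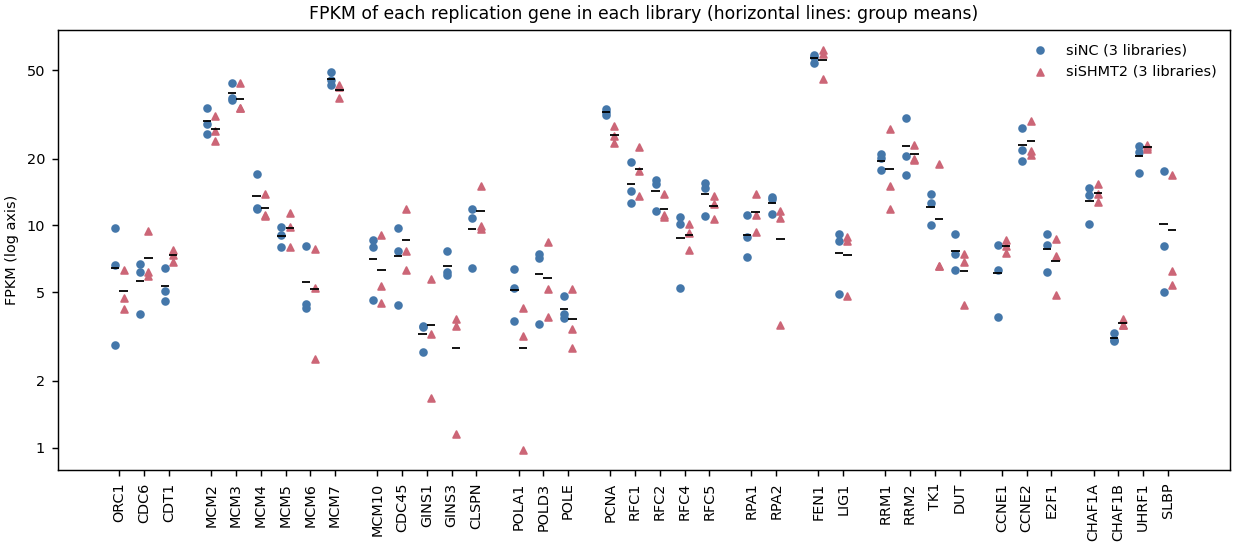
FPKM (log axis) of the 37 replication genes with 60 or more counts in each library, with siNC as circles, siSHMT2 as triangles and horizontal lines at the group means of 3 libraries. The groups are separate in GINS3, PCNA, CDT1 and CHAF1B, and POLA1 and GINS3 each have a siSHMT2 library near the bottom of the axis, at 0.975 and 1.15.

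In 5 genes every library of a group lay on one side of every library of the other, in log2 CPM after TMM normalization. That is 5 of 37, and 9.2% of all tested genes were separated in this way. MCM7, GINS3 and PCNA were lower in siSHMT2, a direction that 4.55% of all tested genes had, and CDT1 and CHAF1B were higher, as 4.65% of all were. Without siSHMT2 replicate 1, 9 replication genes were separated, where 19.3% of all tested genes were. PCNA, the sliding clamp, had FPKM values of 32.4, 33.4 and 31.4 in siNC and 23.4, 27.9 and 25.3 in siSHMT2. The groups did not overlap, and the gap was 32.4 ± 1.01 against 25.5 ± 2.22 (SD, n = 3 each; two-sided exact permutation test, p = 0.1, which is the smallest possible with 3 libraries against 3). On the log2 scale the difference was -0.33, with a 95% interval from -0.88 to 0.23 that runs from near a halving to a small excess. No exon of another gene overlaps PCNA on the opposite strand.

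Among the licensing factors, CDT1 and CDC6 had positive log2 fold changes and ORC1 a negative one, with a median of 0.31. CDT1, which brings the MCM2-7 ring to the origin and is destroyed once S phase begins, had FPKM values of 6.43, 4.55 and 5.06 in siNC and 7.74, 6.88 and 7.37 in siSHMT2. All 3 siSHMT2 libraries were above the siNC libraries, at 7.33 ± 0.432 against 5.34 ± 0.972 (SD, n = 3 each; exact permutation test, p = 0.1). The log2 fold change was 0.44 (95% interval -0.39 to 1.27), and it rests on 8 to 16 counts per library. CDC6, the loading ATPase that works with it, had a log2 fold change of 0.31 (-0.35 to 0.96). ORC1, the ATPase subunit of the origin recognition complex, had -0.28 (-1.15 to 0.59), and its siNC libraries alone ran from 2.88 to 9.70 FPKM. ORC6, another subunit of that complex and the licensing gene with the highest mean FPKM, had 12, 10 and 8 counts in siNC and 5, 8 and 15 in siSHMT2, which overlap.

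The MCM2-7 genes encode the 6 subunits of the replicative helicase, which stand in equal number in the ring. Their summed CPM was the highest of the role groups, a sum scaled neither to gene length nor to the number of genes. Their summed level was 508.8, 501.6 and 501.2 CPM in siNC and 495.1, 453.9 and 454.8 CPM in siSHMT2. The 3 siSHMT2 sums lay below the 3 siNC sums, with means of 467.9 ± 23.5 and 503.9 ± 4.32 (SD, n = 3 each), a description without a test. This separation depends on the TMM factors. Scaled to the library total alone, the sum of siNC replicate 2 lay below that of siSHMT2 replicate 1, so the groups overlapped. MCM7 had FPKM values of 45.2, 42.7 and 49.1 in siNC and 41.9, 37.6 and 43.0 in siSHMT2, a log2 fold change of -0.16 (95% interval -0.49 to 0.17). Its groups touched in FPKM, where the highest siSHMT2 library exceeded the lowest siNC library, and were apart after TMM normalization. The other 5 subunits overlapped between groups. MCM3 had 37.4, 36.8 and 43.8 FPKM in siNC against 43.8, 33.9 and 33.7 in siSHMT2, and a log2 fold change of -0.10. MCM2 had 33.8, 28.7 and 25.8 against 31.1, 26.7 and 23.9, with -0.12, so that each group reached into the other. MCM4 had 17.1, 12.0 and 11.8 against 11.0, 11.2 and 13.8, with -0.17. The pair MCM5 and MCM6 was the least abundant of the ring. MCM5 had 7.98, 9.88 and 9.03 FPKM against 11.4, 9.82 and 8.0, with a log2 fold change of 0.11, the only positive one of the 6. MCM6, whose promoter holds the 4 motif matches shown above, had 4.24, 4.44 and 8.08 against 2.50, 5.21 and 7.85, with -0.06 (95% interval -0.85 to 0.73). The mean FPKM of subunits of a ring of equal parts thus ran from 5.38 for MCM6 to 43.2 for MCM7. MCM2 and MCM7 share exonic sequence with genes on the opposite strand, and the strand setting of the counting is unknown. How far these FPKM values reflect the mRNA level of each subunit was not tested.

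GINS3 carried the largest difference of all replication genes. It encodes a subunit of GINS, the 4-part complex that joins CDC45 and the MCM ring in the active helicase. GINS3 (ENSG00000181938; chromosome 16, 58295080 to 58406147, plus strand) had 20, 13 and 17 counts in siNC and 6, 10 and 3 in siSHMT2. Its FPKM was 7.64, 6.15 and 5.96 in siNC against 3.51, 3.81 and 1.15 in siSHMT2, with each siSHMT2 library below each siNC library. The means were 6.58 ± 0.919 and 2.82 ± 1.46 (SD, n = 3 each; exact permutation test, p = 0.1). Its log2 fold change was -1.23 (SE 0.47, 95% interval -2.18 to -0.29), that is 2.35-fold lower in siSHMT2, with an unadjusted p of 0.0117 and an adjusted p of 1.0 (edgeR's quasi-likelihood test, Benjamini-Hochberg adjustment). The size leans on siSHMT2 replicate 3: without it the value was -0.81 and the unadjusted p was 0.103, while leaving out any other library gave an unadjusted p from 0.00686 to 0.0426. A lncRNA gene, ENSG00000276131, lies on the minus strand from 58392153 to 58392807 and covers the whole promoter window shown above, which ends before the RefSeq start of GINS3. That start lies inside the GENCODE gene, whose span begins farther upstream. It had 137 counts, against 69 for GINS3, and a log2 fold change of 0.07 (95% interval -0.56 to 0.70).

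Of the other GINS subunits, only GINS1 had enough counts for a fold change. GINS1 had FPKM values of 3.53, 2.69 and 3.49 in siNC and 1.67, 3.26 and 5.72 in siSHMT2, a log2 fold change of 0.19 (95% interval -0.70 to 1.08). GINS2 had 9, 4 and 4 counts in siNC against 3, 4 and 3 in siSHMT2, and GINS4 had 11, 3 and 9 against 6, 9 and 14. Both are too low to compare, and a difference between GINS3 and the other subunits was not tested. CLSPN, or claspin, the fork mediator of the checkpoint kinase CHK1, was the most abundant gene of helicase activation, with FPKM values of 10.8, 6.40 and 11.9 in siNC and 9.91, 9.61 and 15.1 in siSHMT2. Its groups overlapped and its log2 fold change was 0.25 (-0.16 to 0.67). CDC45, the helicase cofactor, and MCM10, which helps to fire the loaded ring, had 0.25 and -0.15.

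The 3 polymerase genes with enough counts all had negative values, with a median log2 fold change of -0.19. POLA1, the catalytic subunit of DNA polymerase alpha that begins each Okazaki fragment, was named after its values were seen, since its unadjusted p of 0.0509 lay just outside the threshold. It had 30, 20 and 19 counts in siNC and 3, 15 and 20 in siSHMT2. FPKM values were 6.36, 5.25 and 3.70 against 0.975, 3.18 and 4.26, so that siSHMT2 replicate 1 was far below the rest and replicate 3 lay within the siNC range. Its log2 fold change was -0.76 (95% interval -1.53 to 0.00), and with a library left out it ran from -1.14 (without siSHMT2 replicate 3) to -0.44 (without siSHMT2 replicate 1). The unadjusted p was 0.0129 without siSHMT2 replicate 3, 0.0227 without siNC replicate 3 and 0.243 without siSHMT2 replicate 1. POLA2 and PRIM1, its partners in the polymerase alpha-primase complex, had 2, 7 and 7 and 7, 4 and 7 counts in siNC, against 2, 2 and 1 and 5, 2 and 14 in siSHMT2. POLD3, an accessory subunit of polymerase delta and the most abundant of this role, had 7.10, 3.60 and 7.41 FPKM against 8.41, 3.87 and 5.18. Its groups overlapped fully, with a log2 fold change of -0.13 (-0.88 to 0.62). POLE, the catalytic subunit of the leading-strand polymerase epsilon, had -0.19 (-0.80 to 0.41). The catalytic subunit of polymerase delta, POLD1, had 7, 9 and 10 counts in siNC and 8, 5 and 8 in siSHMT2.

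Replication factor C is the 5-part loader that opens PCNA, and its subunits had values on both sides of 0. RFC1, the large subunit, had FPKM values of 19.3, 14.3 and 12.6 in siNC and 17.6, 13.5 and 22.6 in siSHMT2, with a log2 fold change of 0.22 (95% interval -0.21 to 0.65). RFC2 had 11.6, 15.3 and 16 against 11.1, 13.8 and 10.9, with -0.24 (-0.96 to 0.48). RFC4 had 10.1, 5.23 and 10.9 against 7.76, 9.28 and 10.2, with 0.05 (-0.89 to 0.99). All of these overlapped between groups. RFC5 had 11.0, 14.8 and 15.6 against 10.7, 12.5 and 13.5, which overlap too, with -0.15 (-0.77 to 0.46), and RFC3 had 15, 6 and 5 counts against 5, 5 and 16.

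For the proteins that guard and join the strands, values lay close to 0 or had wide intervals. RPA1 and RPA2, subunits of the trimer that coats single-stranded DNA, pointed in opposite directions. RPA2, with the higher mean FPKM of the pair over all libraries (10.6 against 10.3) but the lower one in siSHMT2 (8.65 against 11.5), had 13.1, 13.4 and 11.3 in siNC and 3.55, 10.8 and 11.6 in siSHMT2, and its log2 fold change of -0.45 (95% interval -1.31 to 0.40) became -0.16 without siSHMT2 replicate 1, the low library. RPA1 had 0.34 (-0.18 to 0.85), and RPA3 had 7, 13 and 5 counts against 7, 8 and 4. FEN1 had FPKM values of 54.0, 57.1 and 58.5 in siNC and 45.5, 59.4 and 61.5 in siSHMT2. With a log2 fold change of -0.01 (-0.36 to 0.35) it was among the most precisely measured of the 37. LIG1, the ligase that seals Okazaki fragments, had -0.00 (-0.63 to 0.63).

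The nucleotide supply genes all had small negative values, from -0.27 to -0.09 with a median of -0.18, and no gene of the 4 was separated between groups. RRM1 and RRM2 are the subunits of ribonucleotide reductase, which makes deoxynucleotides from ribonucleotides. RRM1 had FPKM values of 20.9, 17.7 and 20.2 in siNC and 11.8, 15.0 and 27.1 in siSHMT2, a log2 fold change of -0.09 (95% interval -0.58 to 0.41). RRM2 had 30.6, 20.6 and 16.8 against 23.0, 19.9 and 19.7, with -0.12 (-0.56 to 0.31). In RRM1 the siSHMT2 libraries enclosed the siNC values, and in RRM2 the siNC libraries enclosed the siSHMT2 values. TK1, the thymidine kinase of the salvage route, had -0.27 (-1.12 to 0.57), with siSHMT2 replicate 1 at 18.9 FPKM and the other siSHMT2 libraries at 6.54 and 6.57. Without that library TK1 had -0.87, with groups that did not overlap and an unadjusted p of 0.0732, and without siSHMT2 replicate 2 or 3 it had -0.03 or -0.01. DUT, which removes dUTP and provides the precursor of thymidylate, had -0.24 (-1.12 to 0.65).

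Regulators of the G1/S transition were likewise mixed. CCNE1 and CCNE2 encode cyclin E, the activator of CDK2 at S phase entry. CCNE2 was the most abundant of this role, with FPKM values of 27.5, 19.5 and 21.9 in siNC and 20.8, 21.6 and 29.5 in siSHMT2 and a log2 fold change of 0.07 (95% interval -0.34 to 0.49). CCNE1 had 0.38 (-0.53 to 1.29). E2F1, a transcription factor of the family that activates these genes, had -0.15 (-0.90 to 0.61), and the phosphatase gene CDC25A had 13, 7 and 9 counts against 5, 6 and 13.

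Of the genes that act on chromatin behind the fork, CHAF1B was separated between groups at a low level. CHAF1B, a subunit of the histone chaperone CAF-1, had FPKM values of 3.29, 3.05 and 3.02 in siNC and 3.78, 3.55 and 3.57 in siSHMT2. The groups did not overlap, at 3.12 ± 0.146 and 3.63 ± 0.123 (SD, n = 3 each; exact permutation test, p = 0.1), yet these values are 9 to 13 counts per library and the log2 fold change of 0.22 has a 95% interval from -0.65 to 1.09. Its partner CHAF1A had 0.12 (-0.40 to 0.65). UHRF1, which guides DNA methylation onto new strands and was the most abundant of the role, had 17.3, 21.4 and 22.7 FPKM in siNC and 23.0, 22.1 and 22.5 in siSHMT2. Its log2 fold change was 0.14 (-0.24 to 0.52). SLBP, the stem-loop binding protein of histone mRNA, had -0.08 (-0.97 to 0.82), and its values within siNC alone ran from 5.02 to 17.6 FPKM.

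**Figure D4:**
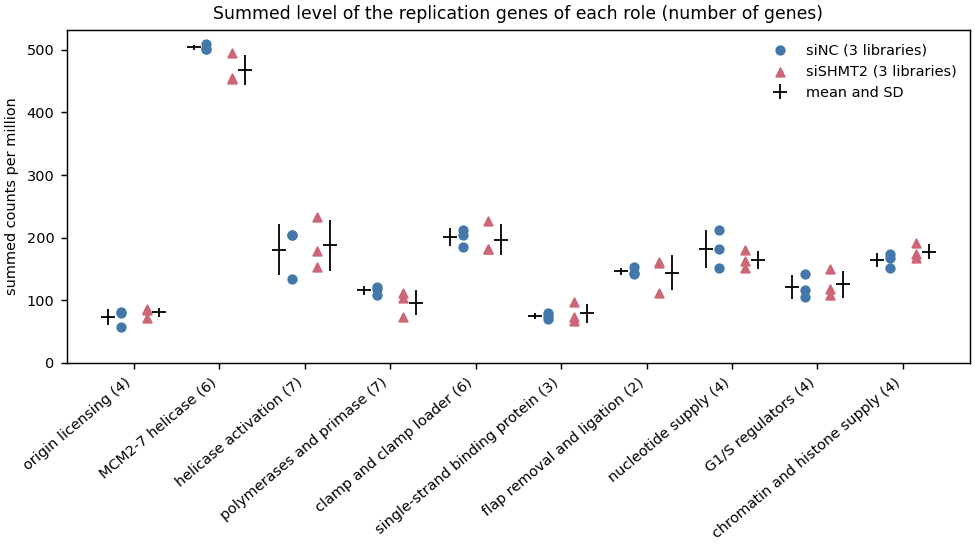
Summed CPM, after TMM normalization, of the replication genes of each role in each library, with the number of genes in brackets, siNC as circles, siSHMT2 as triangles, and the mean and SD of 3 libraries as crosses. The MCM2-7 sums are the highest, at 501.2 to 508.8 in siNC and 453.9 to 495.1 in siSHMT2, and the other 9 roles overlap between the groups.

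Summed over all 47 genes, the level was 1847.8, 1723.6 and 1718.1 CPM in siNC and 1654.7, 1652.5 and 1847.9 CPM in siSHMT2. After TMM normalization, siSHMT2 replicate 3 matched the highest siNC library, and the other siSHMT2 libraries were the lowest. Scaled to the library total alone, siNC replicate 2 lay below siSHMT2 replicate 1. The means were 1763.2 ± 73.3 and 1718.4 ± 112.2 (SD, n = 3 each), a gap smaller than either spread.

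Further genes of the same processes were read in the same way. Of 36 further replication genes, among them the remaining subunits of the origin recognition complex and of the polymerases, 19 were tested, 0 had an unadjusted p under 0.05, and the median log2 fold change was -0.01. Of 10 further nucleotide supply genes, 8 were tested with 0 such p-values and a median of 0.04. TYMS, which makes thymidylate with a one-carbon unit, was named for that role after its values were seen. On the log2 scale it differed by 0.13 (SE 0.22). Of 25 further G1/S and checkpoint genes 18 were tested, with a median of -0.11, and of 10 further genes of replication-coupled chromatin 6 were tested, with a median of -0.03, again with 0 unadjusted p-values under 0.05 in either. The replication-dependent histone genes, whose transcripts lack a poly(A) tail and so largely escape mRNA capture, could not serve as a readout of S phase here: 34 of 69 had 0 counts and 2 were tested.

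The genes of G2 and mitosis are the gene group nearest in function and are given side by side, without a test of the difference. Of 21 such genes 18 were tested, 11 below 0 and 7 above, with a median log2 fold change of -0.15. BUB1, a kinase of the spindle checkpoint, was the 1 gene of them with an unadjusted p under 0.05. It had FPKM values of 11.4, 6.04 and 7.46 in siNC and 6.97, 4.22 and 4.24 in siSHMT2, which overlap. The difference was -0.74 on the log2 scale (SE 0.35), with an unadjusted p of 0.0431 and an adjusted p of 1.0 (edgeR's quasi-likelihood test, Benjamini-Hochberg adjustment). The unadjusted p was above 0.05 with DESeq2 (0.108), limma (0.0805 and 0.0789 with a pseudocount of 1 and 0.1) and the replicate block (0.0573). It was also above 0.05 without siNC replicate 1 (-0.45, p of 0.28), siSHMT2 replicate 2 (-0.63, p of 0.122) or siSHMT2 replicate 3 (-0.61, p of 0.124). With limma, at either pseudocount, 1 gene of the G2/M list had an unadjusted p under 0.05, and it was not BUB1.

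Several replication genes share exonic sequence with a gene on the opposite strand, and the strand setting of the counting is not given in the sources used here. Of the 47 genes, 28 had no such exon, 19 had one, and in 6 it covered 10% or more of the exonic bases: CCNE2 at 37.1%, MCM2 at 23.6%, GINS4 at 23.4%, DUT at 14.5%, GINS3 at 10.9% and RFC5 at 10.6%. In 13 pairs the opposite gene had 60 or more counts, and in 12 of these it had more counts than the replication gene. MCM2 had 438 counts over the 6 libraries, and the lncRNA gene ENSG00000285600 at its 3′ end, which shares 1113 bases with it, had 6861, or 15.7 times as many. CCNE2 had 359 against 11240 for INTS8, a subunit of the Integrator complex, a ratio of 31.3. GINS4 had 52, against 8149 for GPAT4-AS1 and 1503 for ENSG00000253174. By mean FPKM among all genes listed, ENSG00000285600 ranked 76, INTS8 83, GPAT4-AS1 98 and ENSG00000253174 118. MCM7 had 608 against 990 for AP4M1, which starts at position 100101549 within the MCM7 promoter window shown above. These partners had log2 fold changes near 0: 0.02 for ENSG00000285600 (95% interval -0.18 to 0.23), -0.11 for INTS8 (-0.31 to 0.09), 0.00 for GPAT4-AS1 (-0.20 to 0.20), and 0.17 for AP4M1 (-0.13 to 0.47). How far reads of one gene of a pair entered the count of the other was not tested, and the values of MCM2, CCNE2, GINS3, GINS4, DUT and RFC5 carry that limit. With the strand setting unknown, whether the counts of any of the 47 genes hold the reads of its own strand was not tested either. The levels and fold changes of all 47 genes, also those without an overlapping exon, carry this wider limit.

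**Figure D5:**
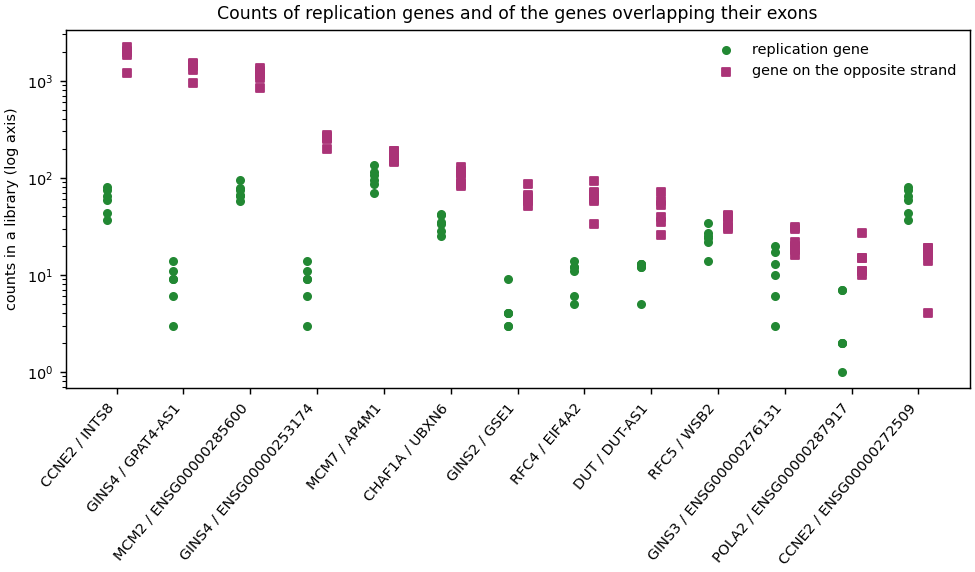
Counts in each of the 6 libraries (log axis) for 13 pairs of a replication gene (circles) and a gene whose exons overlap it on the opposite strand (squares), ordered by the count of the opposite gene. In 12 pairs the opposite gene holds more counts in total, by 31.3 times for CCNE2 and INTS8 and 15.7 times for MCM2 and ENSG00000285600.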

How the data were processed

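RNA of 6 HT-1376 libraries, 3 siNC and 3 siSHMT2, was sequenced by the authors as paired ends. Per the labels, reads were checked with FastQC 0.11.9, trimmed with fastp 0.23.4 and aligned to GRCh38 with HISAT2 2.2.1, and the authors compared groups with DESeq2 1.42.1; which program counted the reads, with which strand setting and annotation, is not given in the sources used here. The deposited counts are whole numbers per Ensembl gene without normalization. The deposited FPKM values equal the count divided by gene length and by summed counts (largest relative difference 2.3e-14).

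Counts were fitted with edgeR 4.0.16 in R 4.3.3 (filterByExpr, TMM normalization, quasi-likelihood test, two-sided, no replicate block) and adjusted by Benjamini-Hochberg over 7207 genes. Replicates differed by 1.79 to 2.51 times counting noise (chi-square per degree of freedom), so none was taken for a repeated library. The total of deposited counts, 533689 to 890574 per library, limits genes of low count. Genes were named by a rule: SHMT2, replication genes with separated groups or an unadjusted p under 0.05, the highest mean FPKM of each role, the MCM, GINS, RFC and RRM subunits and PCNA, and genes of the other lists with an unadjusted p under 0.05. The genes and lists were chosen with earlier results of these data known, so no set test and no p over a list was computed. Gene positions came from GENCODE 44, which held 62666 of the listed genes; promoters came from RefSeq. Alternatives were DESeq2 1.42.0, RLE size factors, library size alone, other filters on counts, limma 3.58.1 applied to log2 FPKM (pseudocount 1 or 0.1), a block for the replicate number, and leaving out each library. Figures were drawn with matplotlib 3.10.9.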

Additional observations from a re-analysis of the deposited data

How the results depend on the processing

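No replication gene reached an adjusted p under 0.05 under any of 14 alternatives. Of the 37 tested genes, 21 kept the sign of the log2 fold change in every alternative that tested them and 16 changed it in at least 1. The count with an unadjusted p under 0.05 was 1 (GINS3). It became 2 (GINS3 and POLA1) with no filter on low counts, and 2 with all 47 genes and no minimum, an alternative chosen after seeing the data. It was 0 with at least 10 counts in every library, a minimum of 100 counts or opposite-strand exons under 10%, settings that all leave GINS3 out, and 1 to 2 when a library was left out. Separated groups were seen in 5 genes, which became 3 with at least 10 counts in every library, where 21 genes were tested, 2 with a minimum of 100 counts, where 23 were, and 6 to 10 with a library left out, where 18.3% to 21.0% of all genes were separated.

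With a library left out, the median of the replication genes ran from -0.11 to 0.01, that of the other replication genes from -0.13 to 0.04, of the other G1/S and checkpoint genes from -0.18 to 0.01, and of the G2/M genes from -0.20 to -0.05. SHMT2 ran from -2.58 to -1.32; with at least 10 counts in every library it could not be tested. Over the same omissions the sign turned for ORC1 (-0.67 to 0.16), MCM4 (-0.29 to 0.02), MCM6 (-0.45 to 0.30), MCM10 (-0.50 to 0.01), CDC45 (-0.07 to 0.50), GINS1 (-0.31 to 0.46), POLD3 (-0.43 to 0.09), RFC4 (-0.15 to 0.21), FEN1 (-0.07 to 0.10), LIG1 (-0.18 to 0.19), RRM1 (-0.50 to 0.10), RRM2 (-0.33 to 0.15), CCNE2 (-0.10 to 0.21), E2F1 (-0.32 to 0.01), CHAF1A (-0.03 to 0.26) and SLBP (-0.82 to 0.54). GINS1 also turned, to -0.03, with limma at a pseudocount of 0.1. The causes were not tested.

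No pairing of the libraries by replicate number was seen: the deviations of same-numbered libraries correlated at -0.015, 0.048 and -0.012, and those of differently numbered ones at -0.031 to 0.045. With counts this low, much of a deviation is counting noise, so these values cannot exclude a pairing. With the replicate number as a block, 2 replication genes (GINS3 and POLA1) had an unadjusted p under 0.05. Other scalings moved the median of all genes by 0.005 or less. The groups of MCM7 were no longer apart with library size alone. The low totals of deposited counts limit every gene of low count.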
